A study of Mus musculus with 9 samples.

Results

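The Gadd45 genes encode small stress-induced adaptor proteins, and the data hold 3 of them, Gadd45a, Gadd45b and Gadd45g, taken by gene symbol from a table of 24594 genes in 9 RNA-seq libraries of mouse thymocytes. All 3 were among the 11569 genes that passed the filter on low values, which kept genes with an RPKM (reads per kilobase of gene and per 1000000 reads) of at least 1 in at least 2 libraries. GADD45 proteins have no enzyme activity of their own. They bind and activate the kinase MEKK4 (Map3k4) upstream of p38 and JNK, and in the nucleus they bind PCNA, the CDK1 and cyclin B1 pair and p21, and they have been linked to DNA repair and to removal of DNA methylation. In T cells Gadd45b and Gadd45g are known for sustaining p38 signalling and interferon-γ production by Th1 cells, Gadd45a for restraining an alternative p38 pathway downstream of ZAP70, and Gadd45b as a transcript of thymocytes that undergo negative selection.

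The study asked how the nuclear receptors Nr4a1 and Nr4a3 take part in the deletion of self-reactive thymocytes. Lethally irradiated mice received bone marrow from 3 congenically marked donors, namely OT-II mice with intact Nr4a1 and Nr4a3, OT-II mice labelled Nr4a1-/- Nr4a3-/- (double knockout, DKO), and an excess of wild-type mice without the transgene. OT-II is a T cell receptor transgene that recognises an ovalbumin peptide on MHC class II. CD4+ CD8- CD69+ thymocytes with the OT-II receptor chains Vα2 and Vβ5 were sorted 4.7 weeks after transfer, the 2 OT-II donors being told apart by congenic marker. The WT hosts are labelled BoyJ, although the study's methods describe wild-type hosts bred in the same cross as the transgenic ones. In WT hosts OT-II cells meet no ovalbumin. The RIPmOVA hosts were F1 mice of BoyJ and a C57BL/6 line with the transgene Tg(Ins2-TFRC/OVA)296Wehi, in which the rat insulin promoter drives membrane-bound ovalbumin in radioresistant medullary thymic epithelium as well as in pancreatic islets. The 4 groups were OT-II from WT hosts (2 libraries), DKO from WT hosts (3), OT-II from RIPmOVA hosts (2) and DKO from RIPmOVA hosts (2), and libraries of both genotypes with the same host and replicate number came from the same mouse. OT-II control donors were F1 mice of B6.Cg-Tg(TcraTcrb)425Cbn/J and BoyJ and DKO donors are labelled C57BL/6, so by the labels Nr4a genotype and donor background cannot be told apart. By the labels alone the same holds for ovalbumin and host background, but not if the WT hosts came from the shared cross.

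Recovered depth was 15520000 to 25050000 gene reads per library. The 8 CD4 T cell markers summed to 1669 to 1921 RPKM in all libraries. Of the 6 dendritic cell markers, 5 lay below 1 RPKM throughout. Nr4a1 RPKM was not lower in DKO libraries (258 ± 33.5 against 245 ± 21.9 in RIPmOVA hosts, SD, n = 2 each), and Nr4a3 was higher (15.3 ± 1.70 against 4.69 ± 1.38), so these gene-level values do not check the genotype label, and DKO stands for the labelled genotype throughout. Reads on olfactory, vomeronasal and taste receptor genes, known from sensory neurons, made up 1047 and 1491 RPM (reads per 1000000 reads) in the DKO libraries of RIPmOVA hosts and 295 to 1141 in the other 7.

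The Gadd45 loci lie on separate chromosomes. In GRCm38, Gadd45a (Entrez 13197) spans chr6:67035096-67037457 on the minus strand, Gadd45b (Entrez 17873) spans chr10:80930073-80932204 on the plus strand and Gadd45g (Entrez 23882) spans chr13:51846678-51848468 on the plus strand. All are protein-coding. The start of Gadd45a overlaps the first exon of a noncoding gene on the opposite strand, E230016M11Rik, which measured 0.081 to 0.826 RPKM, and since use of strand in counting is not stated, reads in the overlap cannot be assigned with certainty. The RefSeq promoters (GRCm38.p6) are shown because the members responded differently. Each is printed 5′ to 3′ from 200 to 21 bases before the transcription start, and capitals mark the GC box (GGGCGG, which both hits hold on the minus strand), the CCAAT box that NF-Y binds, the TATA box (searched with the letters TATAAA) and the octamer bound by POU factors (searched on both strands with the letters ATTTGCAT). The Gadd45a stretch is chr6:67037428-67037607 (minus strand), that of Gadd45b chr10:80929891-80930070 (plus strand) and that of Gadd45g chr13:51846475-51846654 (plus strand). Distances count from the RefSeq transcription starts, which differ from the starts of the spans above, taken from GENCODE. Part of the printed Gadd45a stretch therefore lies within its span.
Gadd45a: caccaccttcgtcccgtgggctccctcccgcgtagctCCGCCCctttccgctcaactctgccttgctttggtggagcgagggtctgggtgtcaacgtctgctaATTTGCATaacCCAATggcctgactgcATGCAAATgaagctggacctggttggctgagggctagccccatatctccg
Gadd45b: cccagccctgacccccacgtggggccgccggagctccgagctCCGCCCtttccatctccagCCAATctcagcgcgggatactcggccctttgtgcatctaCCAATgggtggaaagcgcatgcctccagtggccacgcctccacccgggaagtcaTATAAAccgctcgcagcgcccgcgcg
Gadd45g: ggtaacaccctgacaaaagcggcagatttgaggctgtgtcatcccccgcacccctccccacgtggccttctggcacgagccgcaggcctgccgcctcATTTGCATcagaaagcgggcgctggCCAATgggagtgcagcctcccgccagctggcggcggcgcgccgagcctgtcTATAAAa

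The full window of 250 bases before to 50 after the RefSeq start was searched on both strands. TATAAA was present in Gadd45b (starting 46 bases before that start) and Gadd45g (27 bases before), but not in Gadd45a. It occurred in 13.6% of all 32851 promoters of that length. A GC box, held by 35.7% of promoters, was present in Gadd45a and Gadd45b. CCAAT, held by 37.4%, occurred once in Gadd45a and Gadd45g and 2 times in Gadd45b. The octamer, added to the search after the sequences were read, was held by 1.74% of promoters and occurred 2 times in Gadd45a and once in Gadd45g. No window held the NR4A monomer element AAAGGTCA (1.51% of promoters), the AP-1 site TGANTCA (7.81%), the CRE TGACGTCA (1.79%), the EGR site GCGTGGGCG (0.612%) or the kappaB consensus (8.46%). These matches describe the letters in these windows and no binding was measured.

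Gadd45b was low in WT hosts and high in RIPmOVA hosts in both genotypes. In WT hosts it measured 1.86 and 2.10 RPKM in the OT-II libraries and 1.43, 1.71 and 1.88 in the DKO libraries. In RIPmOVA hosts it measured 52.7 and 41.6 RPKM in OT-II and 51.3 and 35.4 in DKO cells. Every RIPmOVA library lay far above every WT host library, and the ranges of the genotypes overlapped within each host. The hosts did not overlap in 41.6% of tested genes in OT-II and 40.0% in DKO cells. The recovered reads behind these values were 71 to 119 per library in WT hosts and 1520 to 2583 in RIPmOVA hosts.

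The mean rose 23.8-fold with the RIPmOVA host in OT-II cells, from 1.98 ± 0.167 to 47.1 ± 7.89 RPKM (SD, n = 2 each). On the log2(RPKM + 0.5) scale used for all tests the difference was 4.26 (SE 0.19, 95% interval 3.83 to 4.69, limma adjusted p = 1.7e-05), the second smallest p of the 11569 genes tested. In DKO cells the mean rose 25.9-fold, from 1.68 ± 0.226 (n = 3) to 43.3 ± 11.3 RPKM (n = 2), with a log2 difference of 4.31 (SE 0.17, interval 3.92 to 4.71, limma adjusted p = 1.2e-05), the smallest p of all genes. Against this, 1.23% of genes were called in either direction in OT-II and 1.68% in DKO cells (1.05% and 1.52% called higher), where a call needs an adjusted p of 0.05 or less and a log2 difference of at least 1 in size. By size on this log2 scale, the difference ranked 7 among rising genes in OT-II and 4 in DKO cells.

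Between genotypes no difference in Gadd45b was detected. In RIPmOVA hosts DKO minus OT-II was -0.13 on the log2 scale (95% interval -0.57 to 0.30, limma adjusted p = 0.72). In WT hosts it was -0.19 (limma adjusted p = 0.85). The host effect in DKO minus that in OT-II cells, the interaction, was 0.06 (limma adjusted p = 0.95). Within a single mouse the DKO library held 0.973 and 0.852 times the Gadd45b RPKM of the OT-II library in the 2 RIPmOVA chimeras. In the 2 WT hosts with both genotypes it held 0.771 and 0.817 times. The intervals of the fit leave room for a moderate difference in either direction.

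Gadd45g was modest in WT hosts and highest in DKO cells from RIPmOVA hosts. The OT-II libraries measured 4.83 and 2.64 RPKM in WT hosts and 8.81 and 5.51 in RIPmOVA hosts. The DKO libraries measured 3.58, 2.51 and 3.51 RPKM in WT hosts and 20.1 and 11.7 in RIPmOVA hosts. Both DKO libraries of RIPmOVA hosts lay above all 7 others, and both OT-II libraries of RIPmOVA hosts lay above the 5 of WT hosts. The recovered reads were 98 to 170 per library in WT hosts and 258 to 795 in RIPmOVA hosts.

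In DKO cells Gadd45g rose 4.96-fold with the RIPmOVA host, from 3.20 ± 0.599 (n = 3) to 15.9 ± 5.95 RPKM (n = 2), with a log2 difference of 2.11 (SE 0.30, interval 1.43 to 2.79, limma adjusted p = 0.0071). The adjusted p was 0.057 without replicate 1 of the DKO libraries from RIPmOVA hosts, where the log2 difference was 1.73, 0.059 when no gene was filtered out (2.11), and 0.081 with the sensory receptor reads as a covariate (2.02). In OT-II cells the mean went from 3.74 ± 1.55 to 7.16 ± 2.33 RPKM (SD, 2 libraries a group), and its log2 difference of 0.87 (interval 0.12 to 1.61, limma adjusted p = 0.26) was not called. The groups did not overlap in either genotype, as was so for 41.6% of tested genes in OT-II and 40.0% in DKO cells.

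Whether the genotype difference of Gadd45g was called depended on how the shared mice entered the fit. In RIPmOVA hosts the DKO mean was 2.22 times the OT-II mean, a log2 difference of 1.08 (SE 0.33, interval 0.34 to 1.83, limma adjusted p = 0.12), and 1.07% of genes were called in that comparison. Within single mice the DKO library held 2.28 and 2.12 times the RPKM of the OT-II library, so the ratio varied less than the level did. With the chimera as a fixed replicate block, pairing libraries of the same mouse, the log2 difference was 1.08 (SE 0.13, limma adjusted p = 0.030) and passed the call rule. In that fit 97 of the 11569 tested genes were called, and the RIPmOVA pairs came from 2 mice. Of 13 alternatives that kept all libraries, it was the 1 that called this difference. With the chimera as a random block the limma adjusted p was 0.081. The groups did not overlap, as for 59.0% of tested genes.

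In WT hosts the corresponding log2 difference was -0.16 (limma adjusted p = 0.95) with overlapping groups, against 0.0605% of genes called and 20.8% not overlapping. The interaction was 1.24 (interval 0.23 to 2.25, unadjusted p = 0.021, limma adjusted p = 0.50), and 0.0173% of genes were called in it, so a larger host effect in DKO than in OT-II cells was not established after correction. Sensory receptor reads were also more frequent in the DKO than in the OT-II libraries of RIPmOVA hosts (1047 and 1491 RPM against 553 and 295). With these reads as a covariate the genotype difference of Gadd45g there was 0.94 on the log2 scale (limma adjusted p = 0.701).

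Gadd45a differed from both relatives in that its DKO values in RIPmOVA hosts lay within the range of the WT hosts. The OT-II libraries measured 2.77 and 2.51 RPKM in WT hosts and 4.17 and 4.02 in RIPmOVA hosts. The DKO libraries measured 2.77, 1.86 and 2.75 RPKM in WT hosts and 2.29 and 2.25 in RIPmOVA hosts. The 2 OT-II libraries of RIPmOVA hosts lay above the 7 others, and the genotypes overlapped in WT hosts. Groups did not overlap in 41.6% of tested genes for the host in OT-II cells and in 59.0% for genotype in RIPmOVA hosts. The recovered reads were 156 to 404 per library.

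No Gadd45a comparison was called. In OT-II cells the host difference was 0.55 on the log2 scale (interval 0.13 to 0.97, limma adjusted p = 0.21), a ratio of means of 1.55. In DKO cells it was -0.08 (interval -0.46 to 0.30, limma adjusted p = 0.82). In RIPmOVA hosts DKO minus OT-II was -0.73 (interval -1.15 to -0.31, unadjusted p = 0.0033, limma adjusted p = 0.078), with DKO at 0.548 and 0.559 times the OT-II RPKM within the 2 mice. With the sensory receptor reads as a covariate this genotype difference was -0.52 (limma adjusted p = 0.665). In WT hosts it was -0.10 (limma adjusted p = 0.94). The interaction was -0.63 (unadjusted p = 0.032, limma adjusted p = 0.52). The signs of the genotype differences of Gadd45a and Gadd45g in RIPmOVA hosts were opposite.

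**Figure D1:**
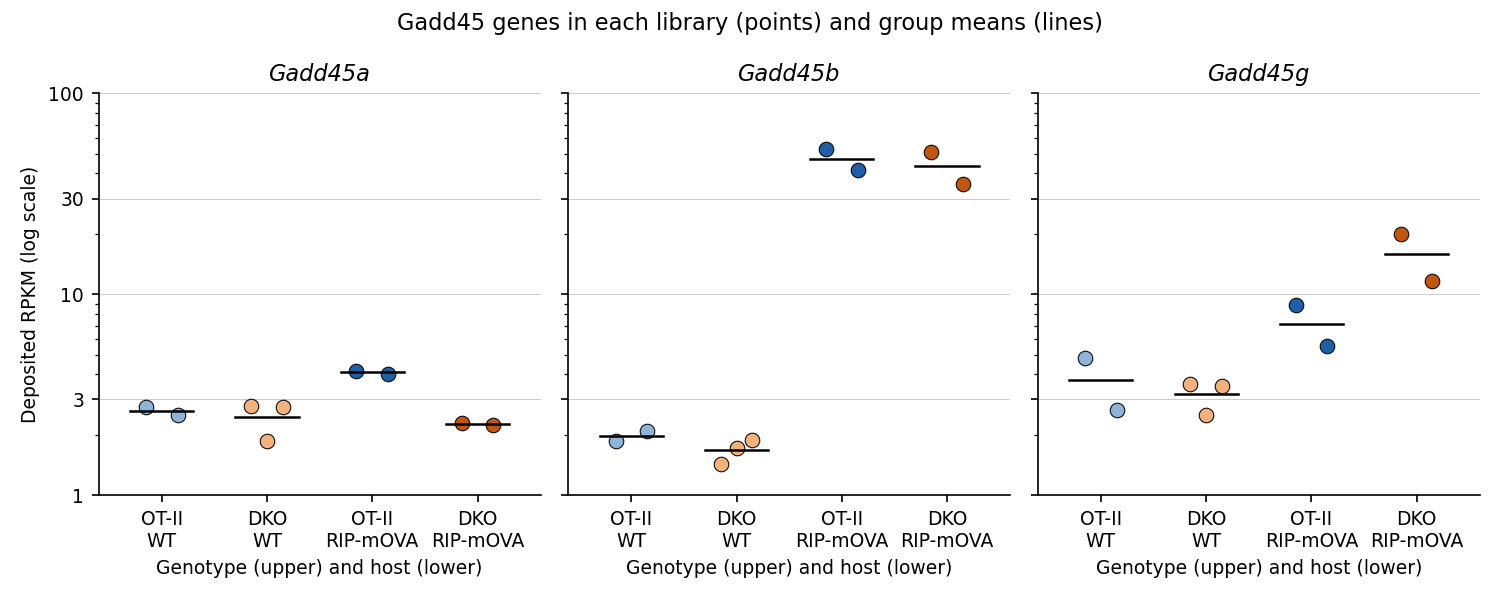
Deposited RPKM on a log axis of Gadd45a, Gadd45b and Gadd45g, with a point for each library and a line at each group mean, by genotype and host. Gadd45b sits between 1.43 and 2.10 RPKM in all WT host libraries and between 35.4 and 52.7 in all RIPmOVA host libraries, while Gadd45g is highest in the DKO libraries of RIPmOVA hosts and Gadd45a in the OT-II libraries of RIPmOVA hosts.

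**Figure D2:**
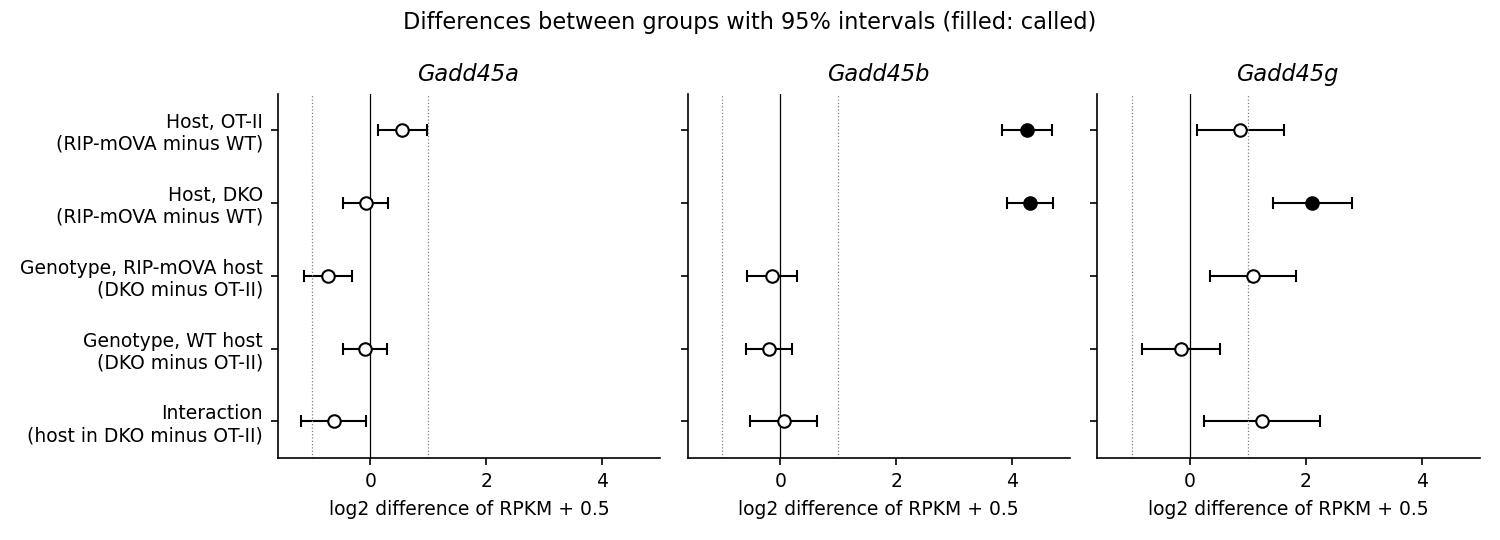
Differences between groups on the log2(RPKM + 0.5) scale with 95% intervals for the 5 comparisons of each gene. Filled points passed the call rule and dotted lines mark a log2 difference of 1 in either direction. Both host differences of Gadd45b and that of Gadd45g in DKO cells are filled.

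The rank of the 3 genes by level changed with the host. The deposited gene lengths count overlapping exons more than once. For comparison between genes RPKM was therefore also rescaled to merged exon length (1764 bases for Gadd45a, 1589 for Gadd45b and 1173 for Gadd45g), which assumes that each read was counted once, a point the sources used here do not state. On that scale the OT-II means in WT hosts were 6.20 for Gadd45a, 6.16 for Gadd45g and 3.06 RPKM for Gadd45b, and the libraries of the first 2 genes overlapped. On the deposited scale the order there was Gadd45g (3.74), Gadd45a (2.64) and Gadd45b (1.98), so the order of Gadd45a and Gadd45g depends on the length used. In RIPmOVA hosts Gadd45b led with 73.0 RPKM in OT-II and 67.1 in DKO cells, ahead of Gadd45g (11.8 and 26.2) and Gadd45a (9.63 and 5.33). The lead of Gadd45b there exceeded the spread between libraries, whereas Gadd45g and Gadd45a overlapped in OT-II cells.

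The summed level of the family overlapped between the genotypes in each host. The sum was 15.4 ± 2.72 RPKM in OT-II (SD, n = 2) and 13.7 ± 2.17 in DKO cells (n = 3) of WT hosts, and 94.4 ± 16.3 and 98.6 ± 27.3 in RIPmOVA hosts (n = 2 each), 6.12 and 7.22 times as high. These sums and the shares that follow rest on merged exon length and on the same assumption. Gadd45b made up 20.3% and 19.4% of the sum in OT-II and DKO cells of WT hosts, and 77.3% and 68.2% in RIPmOVA hosts. In RIPmOVA hosts Gadd45g made up 10.96% and 13.7% in the OT-II libraries and 24.3% and 28.1% in the DKO libraries, and Gadd45a 9.25% and 11.4% against 4.56% and 6.67%. The genotypes did not overlap in these shares, which were not tested. With n = 2 each, the RPKM of the genotypes in RIPmOVA hosts did not overlap in 59.0% of all tested genes either. The shares of a library make up its whole sum, so they are not independent of each other. The libraries are sums over sorted cells, so fewer cells with a transcript and less transcript per cell cannot be told apart.

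**Figure D3:**
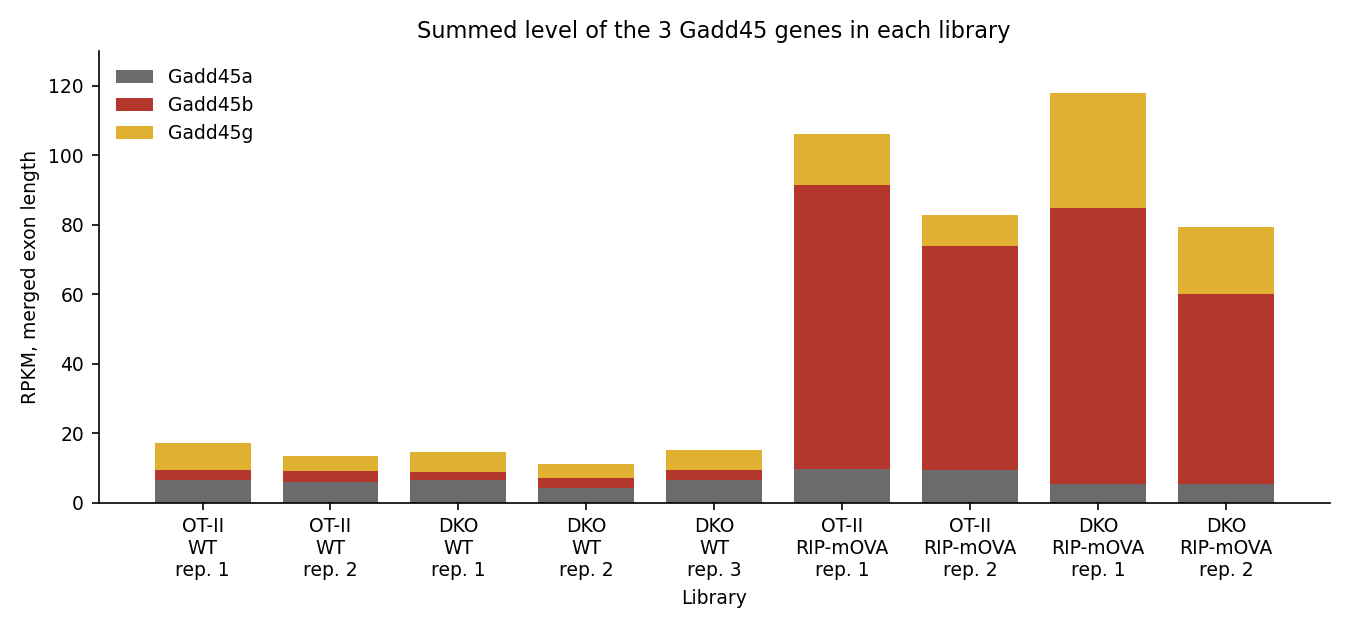
Stacked bars of Gadd45a, Gadd45b and Gadd45g RPKM on merged exon length in each of the 9 libraries. The sums lie between 11.2 and 17.3 in WT hosts and between 79.3 and 118 in RIPmOVA hosts, where Gadd45b forms most of each bar and the Gadd45g segment is taller in DKO than in OT-II libraries.

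No tested gene that acts with the GADD45 proteins was called in any comparison. Of 13 genes of the MAPK arm (Map3k4 and the p38 and JNK kinases with their activators, Zap70 and Atf2), 12 were tested and none was called by limma, nor by limma voom on recovered reads. At an unadjusted p under 0.05, 1 passed for the host difference in OT-II and 2 in DKO cells, where 14.3% and 17.6% of all tested genes passed, and none in the genotype comparisons or the interaction. Their median host difference was 0.01 in OT-II and 0.10 in DKO cells on the log2 scale, against -0.02 and 0.03 over all tested genes. Mapk11, the p38β kinase, had mean RPKM between 41.1 and 52.4 in the 4 groups, and Zap70, the receptor-proximal kinase, between 46.7 and 52.3.

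Of the 11 nuclear partners, 9 were tested and none was called by either tool. The genes of p21 and cyclin B1 did not pass the filter on low values and were not tested. For the host differences in OT-II and DKO cells 1 and 2 had an unadjusted p under 0.05, beside 14.3% and 17.6% of all tested genes. For genotype in RIPmOVA hosts 3 did, beside 21.4% of all tested genes. Pcna, the sliding clamp of DNA replication, had 24.6 ± 1.26 RPKM in OT-II and 34.1 ± 3.51 in DKO cells of RIPmOVA hosts (SD, n = 2 each; log2 difference 0.46, limma adjusted p = 0.13). Ing1, a chromatin-binding partner, had 14.7 ± 1.55 and 10.4 ± 1.85 RPKM (-0.48, limma adjusted p = 0.11). The medians of this list were 0.05 and 0.04 for the host differences.

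In the DNA damage and stress programs that Gadd45 genes are known to belong to, no tested gene was called by the main fit either. For the host differences 1.23% and 1.68% of all tested genes were called in OT-II and DKO cells, so few calls would fall in these lists at those shares. Other settings called at most 1 of the tested p53 targets, for the host difference in OT-II cells. Of 19 p53 targets 13 were tested, and the others did not pass the filter on low values. None of the 13 was called by either tool, with a median host difference of -0.01 in OT-II and 0.15 in DKO cells. An unadjusted p under 0.05 was reached by 3 and 4, beside 14.3% and 17.6% of all tested genes. Btg2, an antiproliferative p53 target, was at 201 and 169 RPKM in OT-II cells of WT and RIPmOVA hosts and at 168 and 174 in DKO cells. Trp53inp1, another p53 target, had log2 host differences of 0.21 and 0.27 (limma adjusted p = 0.48 and 0.25). Of 18 genes of the integrated stress response 12 passed the filter and were tested. None of the 12 was called by either tool, with medians of 0.12 and -0.08 and with 0 and 3 at an unadjusted p under 0.05, beside the same shares of all genes. Its chaperone Hspa5 had log2 host differences of 0.21 and 0.26 (limma adjusted p = 0.44 and 0.22), and Phgdh, of serine synthesis, -0.14 and 0.03 (0.65 and 0.91).

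NF-kB, a known inducer of Gadd45b, was the list with most calls. Of 13 tested NF-kB targets, 4 rose with the RIPmOVA host in each genotype and none fell (1.05% and 1.52% of all tested genes were called higher in OT-II and DKO cells), with median log2 differences of 0.45 in OT-II and 0.71 in DKO cells. The 4 were the adhesion receptor Icam1 (1.22 in OT-II and 1.08 in DKO cells), the precursor subunit Nfkb2 (1.39 and 1.25), the deubiquitinase Tnfaip3 (1.05 and 1.04) and the nuclear IκB protein Nfkbid (1.06 and 1.28), with limma adjusted p between 0.00010 and 0.019. Nfkbid went from 38.7 ± 0.251 to 81.1 ± 2.70 RPKM in OT-II (SD, n = 2 each) and from 37.1 ± 0.223 (n = 3) to 91.1 ± 7.72 in DKO cells (n = 2). Nfkbia, which encodes IκBα, reached 0.45 in OT-II (limma adjusted p = 0.12) and 0.69 in DKO cells (0.012). It missed both limits of the call rule in OT-II and the size alone in DKO cells. Across the other settings, which leave out no library, 1 to 5 members were called in OT-II and 2 to 8 in DKO cells.

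Of the 13 tested regulators of Gadd45 genes, which share Nfkb2 and Relb with the NF-kB list, Nfkb2 was the one called in each host comparison by the main fit, against 0 to 2 genes under the other settings, and the medians were 0.16 and 0.28. Egr1, an immediate early factor, was at 73.6 to 89.3 RPKM in the group means and Trp53 at 41.7 to 50.5, with no call in any comparison. Of the 6 tested genes of the Th1 axis, on which Gadd45b and Gadd45g are known to act, Tbx21, the Th1 master regulator, rose in both genotypes by the main fit. It went from 0.174 and 0.207 to 4.85 and 5.92 RPKM in OT-II cells (log2 difference 3.09, limma adjusted p = 0.0021), which was not called by voom on recovered reads, and from at most 0.259 to 4.01 and 7.44 RPKM in DKO cells (3.29, limma adjusted p = 0.00069). Tbx21 passed the filter on low values only through libraries of RIPmOVA hosts. Il12rb1, an IL-12 receptor chain, rose in DKO cells (1.17, limma adjusted p = 0.0020) and had 0.76 in OT-II cells (0.032), below the size asked for. Stat4, which IL-12 activates, had 0.23 in OT-II and 0.76 in DKO cells.

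Over the 7 lists, 93 genes were named and 74 tested. For the host difference 5 (6.76%) rose in OT-II and 6 (8.11%) in DKO cells and none fell, against 1.05% and 1.52% of all tested genes called higher. In the genotype comparisons and the interaction none of the 74 was called by the main limma fit or by voom. Of all tested genes the main fit called 1.07% in RIPmOVA hosts, 0.0605% in WT hosts and 0.0173% for the interaction. Under other settings up to 2 genes of the Th1 axis were called lower in DKO than in OT-II cells of RIPmOVA hosts, namely Ifng and Il18r1, named after their values were seen. Ifng, which encodes interferon-γ, measured 1.48 and 1.68 RPKM in OT-II and 0.036 and 0.185 in DKO cells of RIPmOVA hosts. The log2 difference was -1.78 (limma adjusted p = 0.077). Ifng passed the filter on low values only through these OT-II libraries, so its test is not independent of the filter. Of the 74 genes, 14 (18.9%) had an unadjusted p under 0.05 in RIPmOVA hosts, 11 (14.9%) in WT hosts and 5 (6.76%) for the interaction, against 21.4%, 7.89% and 9.32% of all tested genes.

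**Figure D4:**
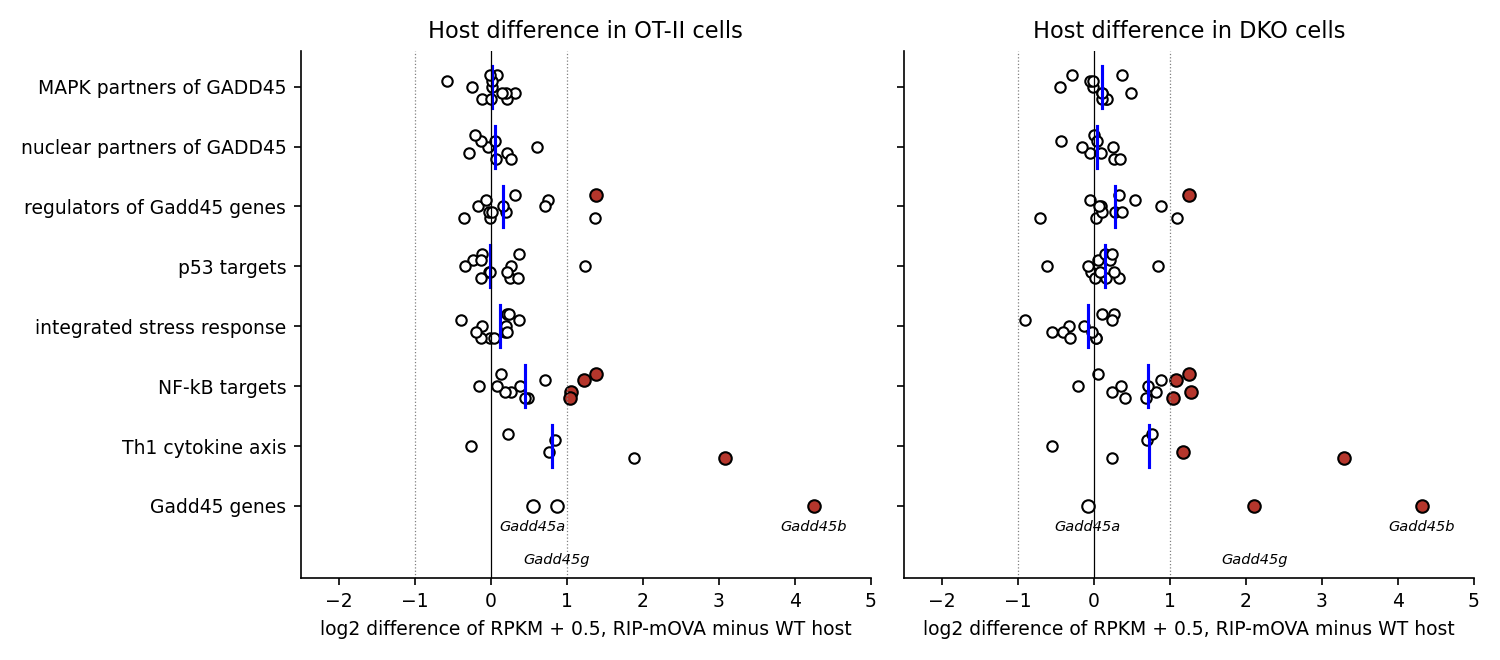
Host differences on the log2(RPKM + 0.5) scale in OT-II (left) and DKO cells (right) of each tested gene in the 7 lists and of the 3 Gadd45 genes. Red points passed the call rule, vertical blue bars mark each list's median and dotted lines mark a log2 difference of 1 in either direction. On this scale Gadd45b lies to the right of every gene of the lists in both panels. The added 0.5 shrinks differences of low genes. By mean RPKM Tbx21 rose by a larger ratio (0.191 to 5.38 in OT-II and 0.119 to 5.72 in DKO cells).

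The genes whose log2(RPKM + 0.5) followed each member most closely over the 9 libraries differed between members. For Gadd45b they were Tbx21 (Pearson r = 0.992), Nfkbid (0.991), Mir155hg, Prnp and Rgs16, all at least 2 times as high in the means of RIPmOVA as of WT hosts. For Gadd45g they were Batf (0.973), Sfr1, Gramd1b, Sfxn3 and Ly6d, each with its highest mean in DKO cells of RIPmOVA hosts, Ly6d going from 4.45 to 281 RPKM with the host in DKO cells. For Gadd45a they were Park7 (0.965), Gnptg, Lactb, Nans and Edf1, each with its highest mean in OT-II cells of RIPmOVA hosts. Among the members, r was 0.84 between Gadd45b and Gadd45g, 0.42 between Gadd45a and Gadd45b and 0.10 between Gadd45a and Gadd45g. These correlations describe 9 libraries, some of which share a host type or a mouse and which differ in depth, and carry no test.

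Markers listed for other cell types moved with the host or genotype to some degree. The 7 macrophage and granulocyte markers summed to 12.6 and 25.4 RPKM in OT-II libraries of RIPmOVA hosts and to 1.51 to 10.3 in the others, with Csf1r, Adgre1, S100a8 and S100a9 below 1 RPKM throughout. The 6 thymic epithelial markers summed to 8.23 and 11.8 RPKM in DKO libraries of RIPmOVA hosts and to 2.75 to 6.98 in the others, with Krt5, Foxn1, Aire and Psmb11 below 1 RPKM throughout. The 3 regulatory T cell markers Foxp3, Il2ra and Ikzf4 summed to 20.97 and 24.98 RPKM in OT-II and 8.80 and 12.3 in DKO libraries of RIPmOVA hosts, and to 1.89 to 7.14 in WT hosts. Foxp3 alone had group means of 0.0517 to 2.61 RPKM. By the call rule Il2ra and Ikzf4 rose with the RIPmOVA host in both genotypes, and the epithelial marker Epcam rose with the host in DKO cells. Foxp3 was called lower in DKO than in OT-II cells of RIPmOVA hosts. It passed the filter on low values only through those OT-II libraries, so this call is not independent of the filter. The 3 CD8 T cell markers summed to 63.7 to 103, the 6 dendritic cell markers to 0.594 to 3.39 and the 4 erythroid markers to 0.964 to 25.1 RPKM. Most of the CD8 sum was Cd8b1 (group means 61.7 to 88.2 RPKM), with Cd8a at 2.25 to 5.62. Whether these transcripts came from other cells or from the sorted thymocytes was not tested. The part of other cells in the Gadd45 values was not tested either.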

How the data were processed

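Poly(A) RNA of sorted thymocytes was profiled in 9 libraries (SMART-seq v4 cDNA, Nextera XT). The authors mapped reads to mm10 with STAR and a GENCODE annotation, removed duplicates marked by Picard, summarised exon reads per gene and deposited RPKM. Versions of STAR and Picard and use of strand are not given in the sources used here. The deposited length equalled the sum of distinct, overlapping exons in 79.27% of 24070 genes matched by symbol to GENCODE vM21. This length exceeded the merged exon length by a factor of 2.35 for Gadd45a, 1.55 for Gadd45b and 1.65 for Gadd45g. Whether reads on overlapping exons were also counted more than once is not stated, so these factors bear on levels between genes only if each read was counted once. They cancel between libraries.

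Low values were whole multiples of 1 read (within 0.1 read in 100% of low values of each library), which gave read counts and depth. Log2(RPKM + 0.5) of 11569 genes entered a limma fit (version 3.58.1, R 4.3.3) with 4 group means and an intensity trend. P-values were adjusted by the Benjamini-Hochberg method over all genes. Called genes had an adjusted p of 0.05 or less and a log2 difference of at least 1 in size. A fold change on this scale understates that of low genes. The p-values rest on 1 estimate of the spread per gene, shared by all 9 libraries, with 2 or 3 mice a group. The main fit treats the libraries as independent, although some share a mouse.

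Groups came from the submitters' labels, which also give the mouse, so OT-II and DKO libraries of a host are paired by animal. Deviations of paired libraries from their group means correlated at 0.006 and -0.24 in WT hosts and -0.08 in RIPmOVA hosts. Alternatives were other pseudocounts (0.1 and 1), a stricter low-value filter (5 RPKM) or none, scaling by median of ratios or by quantiles, voom on recovered reads, compared groups alone, no trend, blocks, and leaving out each library. A sensory receptor read covariate and merged exon length were chosen after seeing the data. Scripts were tested on simulated data. The Gadd45 genes, the 7 gene lists and the tests were chosen with earlier results of these data known. The text names the members, Nr4a1, Nr4a3, up to 4 called genes per list and comparison (otherwise the 2 most abundant), and the 5 genes most like each member. Marker genes and E230016M11Rik are named beside these.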

Additional observations from a re-analysis of the deposited data

How the results depend on the processing

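Of 322 alternative values of the 15 Gadd45 differences, 309 kept their direction and their side of the call rule. Both Gadd45b host differences were called under each alternative run (log2 4.01 to 4.53 in OT-II and 4.03 to 4.69 in DKO cells, all libraries kept). Gadd45g in DKO cells lost its call with no filter (2.11), with the sensory receptor covariate (2.02) and without replicate 1 of the DKO libraries from RIPmOVA hosts (1.73), the lowest of the values that leave out a library (highest 2.49). The paired fit with the chimera as a fixed replicate block called the Gadd45g genotype difference in RIPmOVA hosts (1.08), which ranged from 0.70 to 1.46 when a library was left out, and changed no other Gadd45 call. Replicate numbers do not pair mice across hosts, and a block on them left each host call as it was.

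Changes of sign befell small, uncalled differences. Gadd45a in DKO cells was 0.053 with the sensory receptor covariate. When a library was left out, the genotype difference in WT hosts ranged from -0.18 to 0.057 for Gadd45a and from -0.54 to 0.22 for Gadd45g, that of Gadd45b in RIPmOVA hosts from -0.40 to 0.13 and its interaction from -0.21 to 0.32. The cause was not tested. Counts of called genes over the table moved more. Without OT-II replicate 2 of the WT hosts they were 296 for the host difference in OT-II cells (142 in the main fit), 102 for genotype in WT hosts (7) and 165 for the interaction (2), and with the sensory receptor covariate 87 for the host difference in DKO cells (194) and 18 for genotype in RIPmOVA hosts (124). Over all alternatives the 5 counts ran from 31 to 296, 87 to 387, 18 to 256, 2 to 102 and 0 to 165, in the order host in OT-II, host in DKO, genotype in RIPmOVA hosts, genotype in WT hosts and interaction. By voom on recovered reads the counts were 119, 243, 141, 6 and 0 in that order. With quantile normalization the calls for genotype in RIPmOVA hosts were 64 higher and 137 lower, against 59 and 65. At 5 RPKM Gadd45a did not pass the filter and had no value. With 71 reads the lowest of all members' counts, depth limits Gadd45b in WT hosts most.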
